A study of Homo sapiens with 10 samples.

Results

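The genes described here are 10 whose mRNAs carry, or are named as carrying, a 5′ terminal oligopyrimidine (TOP) tract and whose products are not ribosomal proteins. They comprise the translation elongation factors EEF1A1, EEF1B2, EEF1D, EEF1G and EEF2, together with TPT1, PABPC1, GNB2L1, NAP1L1 and HNRNPA1. They were chosen by symbol, and each of the 10 has a row in both expression tables, out of 11258 transcripts found in both. All 10 were among the 7015 genes whose level reached 5 FPKM in 1 or more libraries of both assays, the set over which shares and medians of all genes are given. FPKM is a fragment number scaled to the length of the transcript and the size of the library, so that levels of different genes are compared per length.

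A TOP mRNA begins with a cytosine at its cap followed by an unbroken run of pyrimidines. mRNAs of this class encode the ribosomal proteins, the elongation factors and several other abundant proteins of the translation apparatus, and their loading onto ribosomes depends on the kinase mTOR. When mTOR signalling is low the mRNAs are kept in the cell but leave the polysomes, and the protein LARP1 can hold the capped tract.

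The study exposed BJ cells, human foreskin fibroblasts immortalized by expression of the telomerase gene hTERT, to nutlin-3a. This small molecule occupies the p53-binding pocket of MDM2, the ligase that otherwise marks p53 for degradation. Cells were collected as a control and after 2, 4, 6 and 19 h of treatment, and every group used here carries the same hTERT transgene. From each, RNA-Seq measured poly(A) RNA and Ribo-Seq measured the mRNA fragments that ribosomes protect, giving 10 libraries with 1 library per group and assay. There is therefore no replicate check of any difference and no p-value. All times were compared with the same control library of their assay, so that an error in it enters every comparison, and the effect of time and the handling of a single library cannot be told apart. BJ is a single cell line, and the labels name neither separate cultures nor sequencing runs. The study describes an effect of the sequencing run on such libraries, which it met by pairing each condition with a control from that run. The runs of the libraries were not used here, so a run and a time, the 2 and 4 h libraries against those of 6 and 19 h included, cannot be told apart.

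Library totals, worked out from FPKM values, were 23845564 to 27554289 reads for RNA-Seq and 7744899 to 14460729 for Ribo-Seq, the fewest at 19 h. They are not the numbers of sequenced reads. The study gives higher numbers for such libraries, and most of its aligned Ribo-Seq reads were rRNA. Shares of reads given below are of the worked-out totals. The fibroblast label was checked with 10 markers, all of which had rows in both tables, at 13.8 to 3011 FPKM in RNA-Seq. The median log2 change of these markers in ribosome density was 0.66 at 19 h, against -0.19 over all genes compared. Of the 10 markers, 5 were higher by 1.5-fold, beside 15% of all genes. The part of this shift in the results below was not tested. Of 10 markers of epithelial, immune, endothelial and muscle cells, 3 had a row in the RNA-Seq table, with no value above 0.305 FPKM, and only DES had one in the Ribo-Seq table, at 0.345 to 0.923 FPKM. CDKN1A, the p53 target that encodes the cell-cycle inhibitor p21, went from 68.6 FPKM of RNA in the control to 1316 at 19 h. The pair of most abundant Ribo-Seq transcripts, ZNF354B and TMC5, together took 14.7% of Ribo-Seq reads in the control, 4.56% at 4 h and 12.6% at 19 h.

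The first bases of the mRNAs are shown because they define the class. Of the 10 genes, 7 have an entry in the RefSeq table of start sites on GRCh38.p14, where GNB2L1 is listed under its current symbol RACK1. EEF1D, PABPC1 and HNRNPA1 are named only. Each line gives the 5 bases before the annotated start and the first 20 of the transcript, which lie in its first exon. Capitals mark the unbroken run of C and T that opens the transcript at the annotated start where the first base is C.
EEF1A1 (chr6:73521013-73521037, minus strand): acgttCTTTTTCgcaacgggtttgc
EEF1B2, downstream start (chr2:206159890-206159914, plus strand): cgggtCCTTTTTCCTCTCTTCagcg
EEF1B2, upstream start (chr2:206159604-206159628, plus strand): gccccagcctcgaggccgggcgtct
EEF1G (chr11:62573872-62573896, minus strand): ggcttactttgcggcagcgccgaga
EEF2 (chr19:3985444-3985468, minus strand): gcgttCTCTTCCgccgtcgtcgccg
TPT1 (chr13:45341164-45341188, minus strand): tcggcCTTTTCCgcccgctcccccc
GNB2L1 (chr5:181243887-181243911, minus strand): tctctCTCTCTTTCactgcaaggcg
NAP1L1 (chr12:76084666-76084690, minus strand): tgggtCTTTTTTagcgccatctgct

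Counting as a tract a C at the annotated start within an unbroken run of at least 5 bases of C or T on the transcribed strand, 6 of the 7 genes had a tract at a start. The run was 7 bases long in EEF1A1, EEF2, TPT1 and NAP1L1, 9 in GNB2L1 and 16 at the downstream start of EEF1B2. The annotated start of EEF1G is an A, and no tract was found there. The same search found a tract at 4.07% of all 35116 annotated starts and in 5.14% of the 27305 genes. A match is a description of the letters at an annotated position, and where transcription began in BJ cells was not measured.

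Between control and 19 h the ribosome density of these mRNAs, which is their Ribo-Seq FPKM, was lower in all 10. By any amount, 4217 of the 7015 genes compared were lower in density at 19 h. The RNA of the 10 stayed within 1.5-fold of the control at every time. Translation efficiency (TE) is the Ribo-Seq over the RNA-Seq level. Its median over the 10 was close to the control at 2 and 4 h and lower at 6 and 19 h. Log2 TE changes of single genes ran from -0.38 (NAP1L1) to 0.53 (PABPC1) at 2 h. At 4 h they ran from -0.41 (EEF1A1) to 0.29 (EEF1D). A gene was counted as lower or higher when it differed from the control by at least 1.5-fold. Lower in TE were 0, 0, 7 and 8 of the 10 in the order 2, 4, 6 and 19 h, where the shares among all genes compared were 1.78%, 0.713%, 12.3% and 15.6%. The median log2 change in TE of the 10 was 0.13, -0.04, -0.74 and -1.14 at the 4 times, beside 0.04, 0.18, 0.00 and -0.07 over all genes. At 19 h, 6 of the 10 were lower by 2-fold or more in TE, which 4.21% of all genes were. At 6 h 3 of the 10 were (2.54%). None of the 10 was higher by 1.5-fold in TE at any time, beside 5.39%, 9.24%, 13.3% and 9% of all genes.

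In ribosome density, 0, 0, 6 and 8 of the 10 were lower at 2, 4, 6 and 19 h, beside 2.72%, 3.26%, 19% and 29.8% of all genes. Their median log2 change in density was 0.00, -0.05, -0.68 and -1.22, against 0.02, 0.10, -0.02 and -0.19 over all genes. None was higher in density, beside 6.96%, 10.4%, 15% and 15%. At 2-fold, 2 of the 10 were lower in density at 6 h (8.04%). In RNA, 0 of 10 were lower at each of the 4 times, when 0.214%, 3.58%, 11.6% and 14.6% of all genes were. None was higher in RNA, beside 2.08%, 3.51%, 5.74% and 7.13%. Their median log2 change in RNA lay between -0.08 and 0.20. The counts depended on the rule for a call: with a cut-off that slides with the level of expression, as the study describes, 3 of 10 were lower in TE at 19 h (EEF1G, TPT1 and NAP1L1), which 3.93% of all genes were, and 0 of 10 in density, beside 3.55%. The same rule gave 3 of 10 in TE (3.06%) and 1 in density (3.92%) at 6 h, and 1 in TE at 4 h (3.52%).

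**Figure D1:**
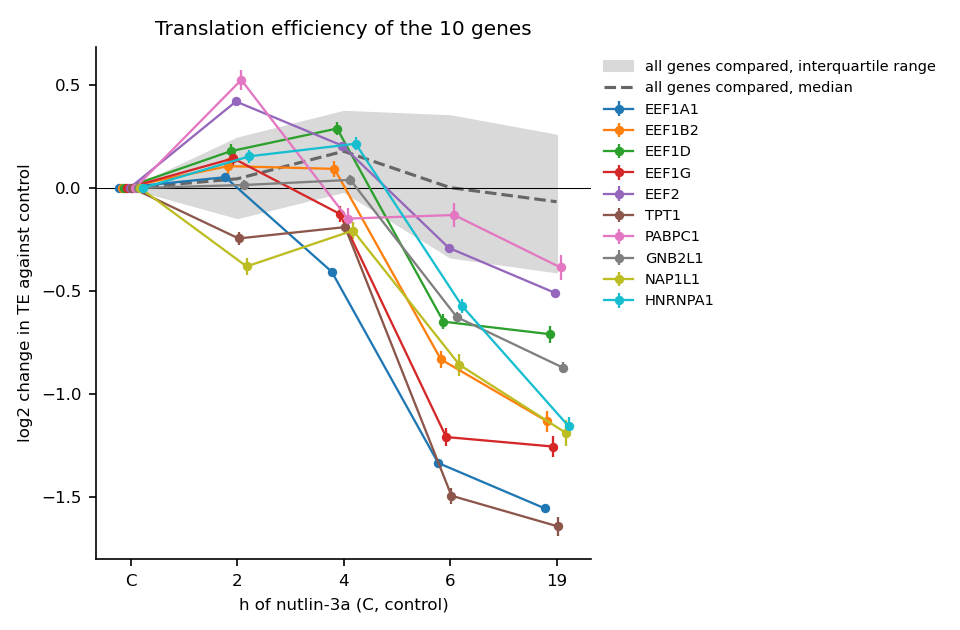
Log2 change in TE against the control library (vertical axis) at 2, 4, 6 and 19 h of nutlin-3a (horizontal axis, evenly spaced), 1 line per gene. Bars are counting standard errors, the dashed line is the median of the 7015 genes compared and the grey band their interquartile range. At 6 and 19 h all 10 genes lie below 0, as do 3496 and 3897 of the 7015 genes. The 10 range from -0.39 for PABPC1 to -1.64 for TPT1 at 19 h.

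As a share of the libraries, the 10 genes took 1.49% of Ribo-Seq reads in the control (95% Wilson interval 1.49 to 1.5%) and 0.728% at 19 h (0.722 to 0.734%). In the libraries between, the share was 1.53%, 1.31% and 0.920%. Their share of RNA-Seq reads was 1.83% in the control (1.82 to 1.83%) and 2.11% at 19 h (2.11 to 2.12%), with the highest share, 2.28%, at 6 h. The Ribo-Seq share at 19 h was thus the lowest of the 5 libraries. EEF1A1 alone held 61.5% of the RNA-Seq reads of the 10 genes in the control and 63.5% at 19 h. Without EEF1A1 and EEF2 the RNA share of the other 8 genes was 0.434% in the control (0.431 to 0.436%) and 0.421% at 19 h (0.419 to 0.424%), and their Ribo-Seq share 0.402% (0.399 to 0.406%) and 0.185% (0.182 to 0.188%). Of the 10 genes, 5 had RNA below the control at 19 h, beside 4013 of the 7015 genes compared. These intervals, and all standard errors below, cover counting error only, as there is 1 library per group. PCR copies could not be told apart, so the intervals and errors may be too narrow even for counting. As a share of all reads is relative, less of these mRNAs on ribosomes and more of other mRNAs there cannot be told apart, and neither can fewer cells that express a gene and less of its RNA per cell.

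The elongation factor eEF1 has 4 subunits among the 10 genes. EEF1A1 encodes eEF1A, which delivers aminoacyl-tRNA to the ribosome and is among the most abundant proteins of the cell. Its RNA was 2528, 2351, 2472, 3345 and 3020.2 FPKM in the control and at 2, 4, 6 and 19 h. Its ribosome density was 2011, 1939, 1483, 1055 and 818 FPKM in the same order. RNA was thus highest in the last pair of libraries, and density was lower at each successive time. Log2 TE changed by 0.05, -0.41, -1.33 and -1.55 in the 4 treated pairs of libraries, with a counting standard error of 0.010 for the last, where TE was 0.340 of the control. EEF1A1 ranked 5th in RNA among all transcripts in the control and 3rd at 19 h, but went from 18th to 44th in ribosome density.

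At 4 h EEF1A1 was the member with the lowest TE change, and 2.52% of all genes compared had a lower one. Its share of Ribo-Seq reads was 0.893% in the control (95% Wilson interval 0.888 to 0.898%), 0.659% at 4 h (0.655 to 0.663%) and 0.363% at 19 h (0.359 to 0.367%). Among all genes its TE level moved from the 47.0th percentile in the control to the 3.66th at 19 h.

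EEF1B2 encodes a subunit that exchanges GDP for GTP on eEF1A. Its RNA was 309.8, 279, 289, 358 and 278 FPKM, and its density 338, 327, 336, 219.5 and 139 FPKM. The first 3 density values lay close together and the last pair lay below them. Log2 TE changed by 0.11, 0.09, -0.83 and -1.13 ± 0.053 (counting SE at 19 h). EEF1D encodes a second exchange subunit. Its RNA was 130.1, 125, 132, 149 and 128 FPKM, and its density 214, 233, 265, 156 and 128 FPKM. Density was therefore highest at 4 h and lowest at 19 h, with log2 changes of 0.31 and -0.74, and TE differed from the control by 0.18, 0.29, -0.65 and -0.71 ± 0.042.

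EEF1G encodes the subunit that anchors the exchange complex. Its RNA was 405, 380.4, 395, 503 and 432 FPKM, and its density 183, 190.2, 164, 98.4 and 81.9 FPKM. The RNA was highest at 6 h, when density had already gone below every earlier library. The log2 changes in TE were 0.14, -0.13, -1.21 and -1.25 ± 0.053, the third lowest value of the 10 at 19 h, although no tract was found at its annotated start. Its TE level was at the 14.9th percentile of all genes in the control and at the 0.955th at 19 h.

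EEF2 encodes the factor that moves the ribosome along the mRNA by a codon. Its RNA was 852, 886, 917, 1046 and 1108 FPKM, higher at each successive time, up to a log2 change of 0.38 at 19 h. Its density was 627, 872, 777, 629 and 572 FPKM, so that the 2 h library was the highest and the 6 h value was level with the control. Log2 TE changed by 0.42 ± 0.015, 0.21, -0.29 and -0.51 ± 0.017, and did not pass 1.5-fold at any time. EEF2 had the smallest difference in density at 19 h among the 10 genes, -0.13, though its start carries a tract of 7 bases.

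**Figure D2:**
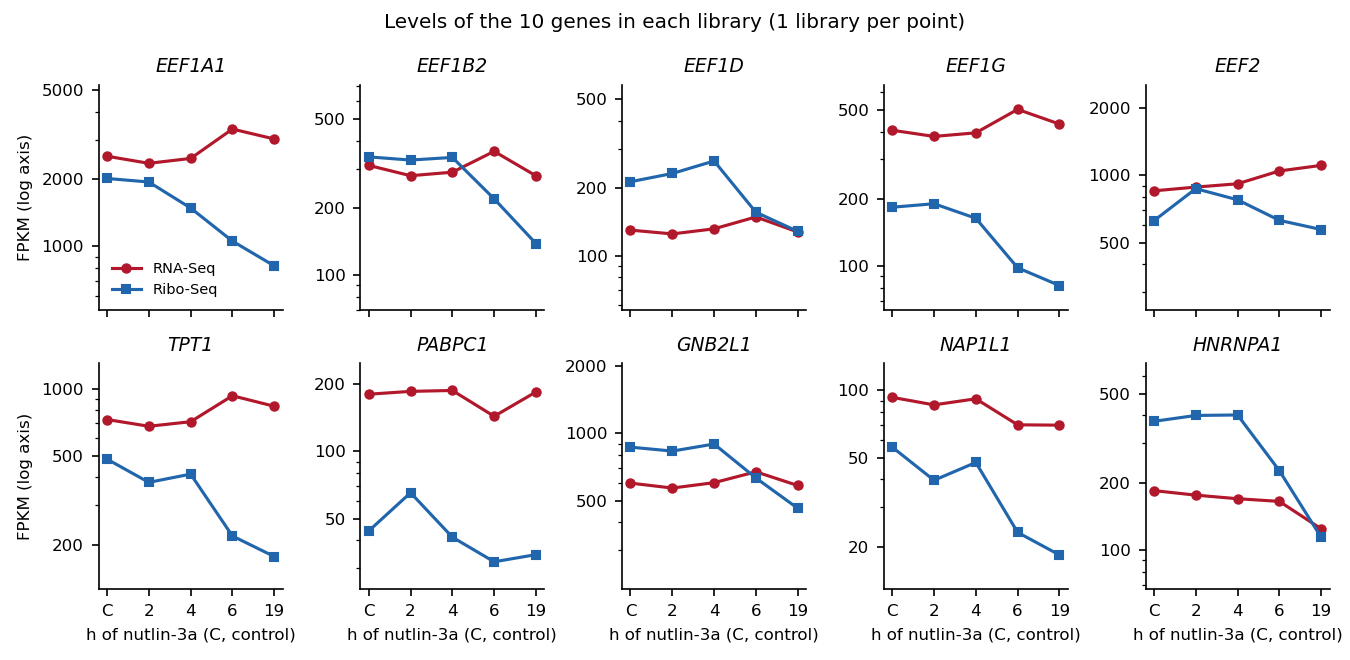
RNA-Seq (red circles) and Ribo-Seq (blue squares) level in FPKM of each of the 10 genes on a log axis (vertical, the same span of fold in each panel), in the control (C) and after 2, 4, 6 and 19 h of nutlin-3a (horizontal axis), with 1 library per point and so no error bar. RNA varied by 1.18-fold (GNB2L1) to 1.48-fold (HNRNPA1) over the 5 libraries and ribosome density by 1.52-fold (EEF2) to 3.53-fold (HNRNPA1).

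TPT1 encodes the translationally controlled tumour protein, a small and abundant protein that binds eEF1A and its exchange factor. Its RNA was 727, 678, 710.4, 928 and 833 FPKM, and its density 483, 380.4, 414, 219 and 177 FPKM. Density in the last pair of libraries was below every other value while RNA was above every other value. Log2 changes in TE of -0.24, -0.19, -1.49 and -1.64 ± 0.046 were measured, the lowest of the 10 genes at 6 and at 19 h, where TE was 0.320 of the control. Of all genes compared, 0.470% had a lower TE change at 19 h.

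PABPC1 encodes the cytoplasmic poly(A)-binding protein, which joins the tail of an mRNA to its initiation complex. Its RNA was 180.3, 186, 187, 144 and 185 FPKM, and its density 44.1, 65.4, 41.4, 32.1 and 34.6 FPKM. The 2 h library had the highest density and the 6 h library the lowest RNA and density. In TE the log2 changes were 0.53 ± 0.047, -0.15, -0.13 and -0.39 ± 0.060, within 1.5-fold of the control at each time. The TE level was low throughout: 1.94% of all genes were below it in the control and 0.870% at 19 h. Reads shared with paralogs were not kept and the level is per whole transcript, so it is uncertain.

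EEF2 and PABPC1 were the only members of the 10 not lower by 1.5-fold in TE at 19 h against the control, and they had the highest TE changes of the 10 at 2 h. Set against the 2 h library instead, all 10 were lower by 1.5-fold in TE at 19 h, beside 10.2% of all genes. EEF2 was at -0.93 and PABPC1 at -0.91 on the log2 scale. These values contain the high 2 h values of both genes by construction, so they are no separate check.

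GNB2L1 encodes RACK1, a scaffold protein of the small ribosomal subunit. Its RNA was 599, 569, 602, 673 and 584 FPKM, and its density 867, 833, 896, 631 and 462 FPKM. RNA had the narrowest range of the 10 genes, 1.18-fold, and the density of the last pair of libraries lay below the first 3. Log2 TE changed by 0.01, 0.04, -0.63 and -0.87 ± 0.028. With the trend on transcript length removed its TE change at 6 h was -0.48, inside 1.5-fold.

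NAP1L1 encodes a chaperone for histones H2A and H2B. Its RNA was 93.1, 86.1, 91.7, 70.1 and 69.9 FPKM, and its density 55.7, 39.6, 47.6, 23.2 and 18.4 FPKM. Both were lowest in the last pair of libraries. Log2 RNA differed by -0.41 at 6 and at 19 h and log2 density by -1.27 and -1.60, so that TE differed by -0.86 and -1.19 ± 0.062. At 2 h it had the lowest TE change of the 10, -0.38. Set against the 2 h library its TE change at 6 h was -0.48, inside 1.5-fold.

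HNRNPA1 encodes a nuclear RNA-binding protein that acts in splicing. Its RNA was 184, 176, 169, 165 and 124 FPKM, and its density 376, 399, 402, 226 and 114 FPKM. RNA was lower at each successive time and density dropped only after 4 h. It had the lowest log2 change of the 10 in RNA at 19 h, -0.57, and in density, -1.72, with TE at -1.16 ± 0.046. At 6 h its TE change of -0.57 lay just inside 1.5-fold. Its TE level was the highest of the 10 in the control, above 92.8% of all genes, and above 59.0% of them at 19 h. Reads shared with HNRNPA1L2, a gene of closely similar sequence, were not kept in the authors' alignment, so both values are uncertain.

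**Figure D3:**
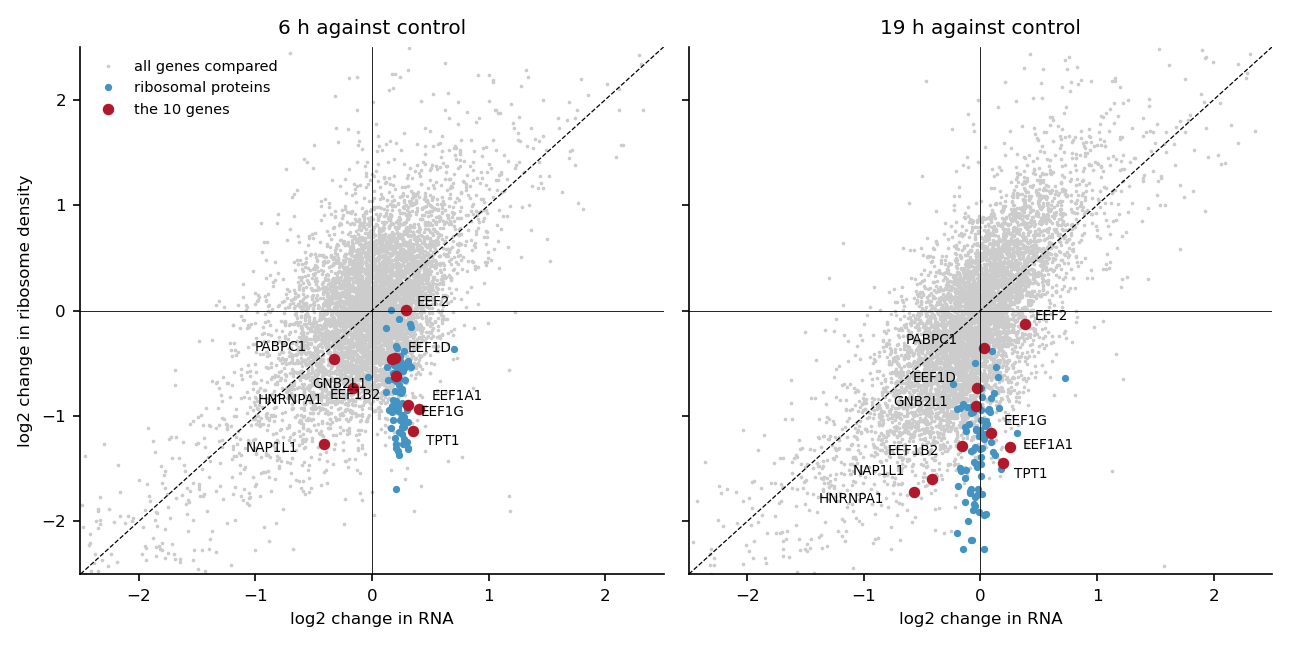
Log2 change in ribosome density (vertical axis) against log2 change in RNA (horizontal axis) at 6 h (left) and 19 h (right) against the control, for all 7015 genes compared (grey), 77 ribosomal proteins (blue) and the 10 genes (red, labelled). The dashed line marks equal change, that is no change in TE, and 152 and 254 genes lie outside the axes. The 10 genes lie below the dashed line in both panels, as do 3496 and 3897 of all 7015 genes. RNA changes of the 10 at 19 h run from -0.57 (HNRNPA1) to 0.38 (EEF2).

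The difference between neighbouring times was largest from 4 to 6 h. Over that step log2 TE was lower in 9 of the 10, by 1.5-fold or more in 8, beside 15.8% of all genes, with a median of -0.86 against -0.20 over all genes. PABPC1 was the exception, at 0.02, and TPT1 had the lowest step, -1.31. From 6 to 19 h TE was lower in all 10, with a median of -0.23 against -0.08 over all genes. None of the 10 was lower by 1.5-fold in that step, beside 5.5% of all genes. The smallest steps, EEF1G (-0.045, counting SE 0.059) and EEF1D (-0.061, counting SE 0.044), lay close to their counting errors. The largest difference in that step was in HNRNPA1, -0.58. From 2 to 4 h the median was 0.0058, and PABPC1 (-0.67) was the 1 gene of the 10 lower by 1.5-fold in TE, beside 3.11% of all genes, followed by EEF1A1 (-0.46). It was also the 1 lower in density over that step (-0.66), beside 6.36%. Neighbouring steps share the library between them and are not independent.

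The ribosomal proteins, the main class of TOP mRNAs, gave the nearest comparison. Of 79 listed, 77 were compared. In TE 74 were lower by 1.5-fold at 19 h and 70 at 6 h, beside 15.6% and 12.3% of all genes. The median of their log2 TE changes was -0.997 at 6 h and -1.32 by 19 h, beside -0.74 and -1.14 for the 10 genes. It ranged at 19 h from -2.29 for RPL26 to -0.45 for RPS15, so 9 of the 10 genes lay within the range of the ribosomal proteins and PABPC1, at -0.39, lay above it. No test of the difference between the lists was made, as there is 1 library per group.

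A second list held 24 further genes named as TOP mRNAs or candidates, all of which were compared. In TE at 19 h 13 of them were lower by 1.5-fold and none was higher, beside 15.6% and 9% of all genes. Their median was -0.65. The initiation factor EIF4B had the lowest value, -1.70, with 136 FPKM of density in the control and 55.4 at 19 h, while its RNA went from 148 to 195 FPKM. VIM, which encodes the intermediate filament vimentin, had the highest, 0.41. Other elongation and termination factors of the cytoplasm and mitochondria differed less, and of 16 listed 13 were compared. In TE at 19 h 3 of the 13 were lower, beside 15.6% of all genes, and the median was -0.14. They ranged from -0.87 for ABCE1, which recycles ribosomes after termination, to 0.47 for EEF2K, the kinase of eEF2. Of the 13, 0 had a tract at an annotated start, beside 8.75% of all compared genes with a start entry.

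Paralogs, genes of related sequence, were set beside each gene. Of 20 paralogs of the 10 genes, 14 were compared, 3 were not in both tables and 3, EEF1A2 among them, were below the filter. At 19 h 3 of the 14 were lower by 1.5-fold in TE and none was higher, beside 15.6% and 9% of all genes. The median of the 14 was -0.12. Their RNA, in contrast, was lower by 1.5-fold in 8 of 14 at 19 h, beside 14.6% of all genes, with a median of -0.75. That of the 10 genes was lower in 0.

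Beside NAP1L1, the paralog NAP1L4 had a log2 TE change of -0.81 at 19 h and NAP1L5 one of 0.30 from a control level of 3.22 FPKM of RNA. Beside PABPC1, PABPC4, also among the TOP candidates, was at -0.15 and the nuclear PABPN1 at 0.36, and PABPC4 had, like PABPC1, a positive value at 2 h, 0.65. Beside GNB2L1, whose protein shares its repeats with the G protein beta subunits, GNB1 was at 0.12, GNB2 at 0.32 and GNB4 at -0.53. EEF1E1, named with the eEF1 subunits but part of the aminoacyl-tRNA synthetase complex, was at -0.74.

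Among the paralogs of HNRNPA1, HNRNPA1L2 was the lowest at -1.40 ± 0.23, from 9.78 FPKM of density in the control to 2.51 at 19 h, with the uncertainty on shared reads given above. HNRNPA3 was at -0.55, HNRNPA2B1 at -0.53 and HNRNPD at -0.09, while HNRNPA0 was at 0.30 and HNRNPAB at 0.35. RNA of HNRNPAB, HNRNPD and HNRNPA2B1 differed by -1.38, -1.23 and -0.95 at 19 h, a larger difference than in HNRNPA1.

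**Figure D4:**
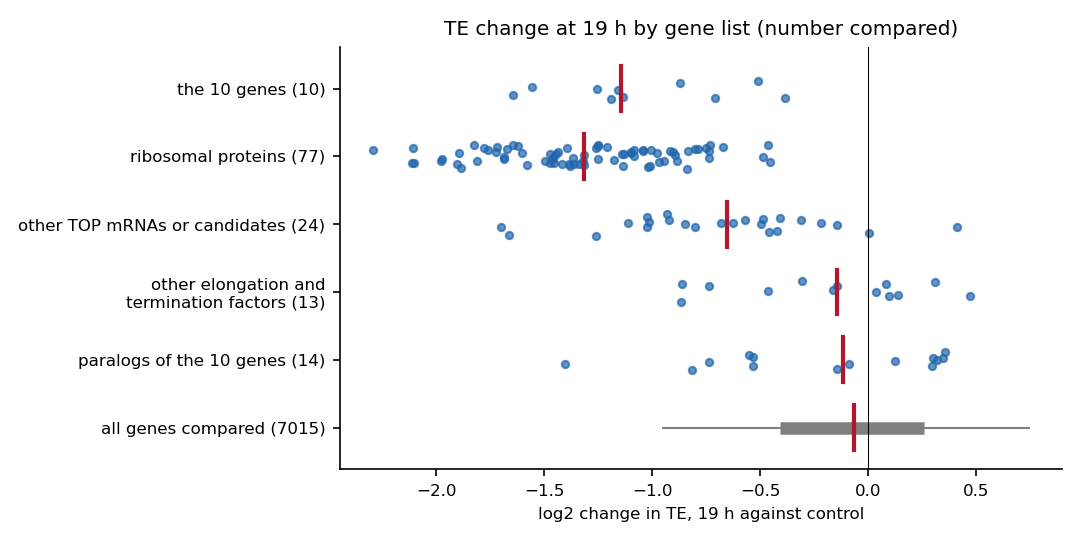
Log2 change in TE at 19 h against the control (horizontal axis) for the 10 genes, 77 ribosomal proteins, 24 other TOP mRNAs or candidates, 13 other elongation and termination factors and 14 paralogs of the 10 genes (rows), 1 point per gene with vertical scatter for legibility. Red bars are medians, and for all 7015 genes the thick bar spans the interquartile range and the thin line the 5th to 95th percentile. Medians run from -1.32 for ribosomal proteins and -1.14 for the 10 genes to -0.12 for paralogs and -0.07 for all genes.

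Starts of genes from these lists are shown to set the sequences beside TE. HNRNPA0 is the 1 compared paralog with a tract, EIF4B and VIM are the extremes of the TOP candidates, and EEF1E1 and GNB2 are paralogs without a tract.
HNRNPA0 (chr5:137754344-137754368, minus strand): gcggcCTCTTTgtgtggtgcccaga
EIF4B (chr12:53006451-53006475, plus strand): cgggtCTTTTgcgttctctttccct
VIM (chr10:17228236-17228260, plus strand): gatctgggaggcccacgtatggcgc
EEF1E1 (chr6:8102529-8102553, minus strand): gtctcgcgtctgccaggagctacgg
GNB2 (chr7:100673735-100673759, plus strand): gcgtcactggcgggcgggatccctc

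The letters at the start were set beside TE list by list. Of the 16 candidates with a start entry, 11 had a tract, and 9 of these were lower by 1.5-fold in TE at 19 h, with a median of -0.93. Of the 5 without a tract 1 was lower, with a median of -0.46. The list is small and was named by hand, and the difference was not tested. Among ribosomal proteins 46 of 62 had a tract, and the median TE change was -1.31 with and -1.28 without it. HNRNPA0 had a run of 6 bases and a TE change of 0.30, and EEF1G had none and was at -1.25.

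Over all 5806 compared genes with a start entry, 508 (8.75%) had a tract, and 26.6% of these were lower by 1.5-fold in TE at 19 h, against 14.3% of the rest. Without the ribosomal proteins and the 10 genes the shares were 18.9% of 456 genes with a tract and 14.1% without, and the medians were -0.15 and -0.06. These are descriptions of 1 library per time, and no test was made of them.

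The genes whose 8 log2 changes in RNA and density over the 4 times lay nearest the medians of the 10 genes, by Euclidean distance, were EIF3M (0.249), FXR1 (0.260), EIF3L (0.269), RPS16 (0.272) and C6orf211 (0.279). The median distance of all compared genes was 1.58. Of the nearest 50 genes, 26 were ribosomal proteins, as were 77 of all 7015 genes compared. EIF3M and EIF3L encode subunits of initiation factor eIF3, RPS16 a protein of the small ribosomal subunit and FXR1 an RNA-binding protein. Among the 10 genes themselves EEF1B2 lay nearest the medians, at 0.216, and EEF2 farthest, at 1.48.

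Of 13 listed regulators of TOP mRNA translation 10 were compared, and their median TE change at 19 h was 0.01. In TE at 19 h 1 of the 10 was lower by 1.5-fold and 2 were higher, beside 15.6% and 9% of all genes. EIF4E, which encodes the cap-binding protein, had the lowest value, -1.19, with its density at 152 FPKM in the control and 47.9 at 19 h. EIF4G1, which encodes the initiation scaffold that PABPC1 and eIF4E bind, had the highest, 1.31, with density at 39.4 and 83.7 FPKM. LARP1 was at -0.17 and MTOR at 0.43.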

How the data were processed

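Poly(A) RNA-Seq and Ribo-Seq of BJ fibroblasts were analysed from 2 tables of FPKM that the authors deposited, with 3 decimals and 5 columns each. Per the submitters' processing notes and the study's methods, reads were aligned with Bowtie (hg19 is named) to protein-coding Ensembl transcripts, 1 isoform per gene, keeping unique hits. Reads shared by paralogs were therefore lost, and reads of pseudogenes, which were not in that reference, may have been counted for a parent gene. Assays were assigned from the table names: the one naming ribosome profiling only was taken to be Ribo-Seq, and the one naming both, with 1 column per time, to be RNA-Seq. As a check, 21 of 28 histone transcripts, which mostly lack a poly(A) tail, had under 1 FPKM in the control RNA-Seq column, against 0 in the control Ribo-Seq column. Transcript lengths, read numbers and library totals were worked out from the steps between values, with a length for 11240 transcripts (99.8%). The study's methods state that translation levels rest on reads in the coding sequence alone. One transcript length, however, served both tables, and the columns are named as totals. Recovered Ribo-Seq totals (11763300, 10073094 and 7744899 reads in the control, 6 and 19 h) came close to the study's non-rRNA reads for such libraries. The study places only part of those reads in the coding sequence. Recovered reads of transcripts in both tables made up 97.7 to 98.5% of these totals. The values thus appear to include reads outside the coding sequence. TE levels are per whole transcript and differ in that from the study's TE.

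Values were floored at 1 FPKM, and log2 changes were taken to the control of the same assay. Counting standard errors came from the reciprocals of the recovered read numbers, summed, square-rooted and converted to log2. With 1 library per group no test was made. Recovery and fold calls were tested on simulated data. The members and lists were chosen with earlier results of these data known. All 10 members are named, with the lowest and highest TE change of each list at 19 h, every compared paralog, and the 5 nearest profiles. LARP1, MTOR, the 2 h value of PABPC4 and the RNA values of paralogs were named after their values were seen. Alternatives were another floor, a pseudocount, other filters, another baseline, centring, other totals, a length correction and other call rules. Python 3.11.15, numpy 2.4.6, pandas 2.3.3 and scipy were used.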

Additional observations from a re-analysis of the deposited data

Results flagged for a closer look

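In 5 cases a gene of the 10 lay at least 1.2-fold above the control at one time and at least 1.2-fold below it at another. Each value is the log2 difference between the highest and the lowest time, and with 1 library per time none of these differences was tested. For EEF1D the ribosome density was 0.31 above the control at 4 h and -0.74 at 19 h, a difference of 1.05, and its TE was 0.29 and -0.71, a difference of 0.999. For PABPC1 the ribosome density was 0.57 at 2 h and -0.46 at 6 h, a difference of 1.03, and its TE was 0.53 at 2 h and -0.39 at 19 h, a difference of 0.911. For EEF2 the TE was 0.42 at 2 h and -0.51 at 19 h, a difference of 0.93.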

How the results depend on the processing

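With 1 library per group, spread between replicates is unknown. No paired analysis was possible because each group has 1 library. No difference past 1.5-fold changed direction under the alternatives run, while medians near 0 did change sign below. A pseudocount of 1 FPKM left all 24 medians and counts of the 10 genes within their counting interval or 1.5 times. A floor of 5 FPKM, no filter and a mean of at least 20 FPKM could not change them and are no check. No value of the 10 genes was below 18.4 FPKM, and all 10 passed each filter. At 6 and 19 h TE stayed below 0 in each of the 10 genes under every alternative, PABPC1 at 6 h being nearest to 0 (-0.12). The medians and counts that moved are given next, and single genes at the end, and the cause was not tested. With the 2 h library as the baseline, the median log2 change in RNA was 0.061 (4 h) and 0.25 (6 h). In density it was 0.023, -0.79 and -1.10 (4, 6 and 19 h). At 4 h 1 gene was lower in density and 1 in TE, beside 6.36% and 3.11% of all genes. Centred on the median of all genes, the median log2 change was -0.037, 0.047 and 0.070 in RNA (2, 4 and 19 h). In density it was -0.15 and -1.03 (4 and 19 h). In TE at 4 h it was -0.22, and 1 gene was lower, beside 2.54% of all genes. With totals that leave out ZNF354B and TMC5, the median was -0.13, -0.21 and -0.80 in density (2, 4 and 6 h). In TE it was -0.0066, -0.21 and -0.86 at the same times. In density 1 gene was lower at 2 h and 1 at 4 h, beside 6.4% and 7.18% of all genes. The trend on transcript length was 0.15 log2 of TE per doubling of length at 19 h. With the trend removed, the median was -0.048 and 0.17 in RNA (2 and 6 h). It was 0.14, -0.59 and -1.07 in density and 0.20, -0.63 and -1.01 in TE (2, 6 and 19 h). In density at 2 h 1 gene was lower, beside 2.32% of all genes. At 2-fold, 2 genes were lower in density and 3 in TE at 6 h, beside 8.04% and 2.54% of all genes. With the sliding cut-off, 1 gene was lower in density at 6 h (NAP1L1) and 0 at 19 h (3.92% and 3.55% of all genes). In TE it called 1 at 4 h (EEF1A1), 3 at 6 h and 3 at 19 h, beside 3.52%, 3.06% and 3.93%. The 3 were EEF1G, TPT1 and NAP1L1 at both times. Of the 20 TE values of single genes at 6 and 19 h, 18 moved by more than their counting interval with the 2 h baseline, 14 with the length trend removed, 12 with the other totals and 3 with centring. Calls differed with the 2 h baseline at 6 h, where EEF2 (-0.71), PABPC1 (-0.66) and HNRNPA1 (-0.73) became lower by 1.5-fold and NAP1L1 (-0.48) no longer was, and at 19 h for EEF2 (-0.93) and PABPC1 (-0.91). GNB2L1 was not called at 6 h with the length trend removed (-0.48), and HNRNPA1 was called at 6 h with the other totals (-0.70).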
